A study of Mus musculus with 2 samples.

Results

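The 9 genes described here encode the enzymes that turn lanosterol into cholesterol: Cyp51, Tm7sf2, Lbr, Sc4mol (also called Msmo1), Nsdhl, Hsd17b7, Ebp, Sc5d and Dhcr7. Their probes were picked by the gene name that the array gives each, with no use of measured values. The genes themselves were chosen with earlier results of these data known, and they are 9 of the 17318 genes that could be measured. They carried 234 of the 474380 measured probes, of which 231 passed the filters. The study sheared chromatin of testicular germ cells and precipitated it with an antibody to the transcription factor CREM (sc-440, Santa Cruz), with goat IgG for comparison. The groups were thus the CREM precipitate, labelled with Cy5, and its control, the IgG precipitate, labelled with Cy3, both from adult male C57BL/6 mice. Both were hybridised together to 2 promoter arrays that share no measured probe, so each group had 1 sample per probe and no replicates. The protocol pooled germ cells from 5 testes, and no array with swapped dyes was used, so antibody and dye cannot be told apart. Arrays of precipitated DNA carry no expression levels, so the labelled tissue was not checked against marker genes.

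Cholesterol synthesis begins from acetyl-CoA and reaches the first sterol, lanosterol, after squalene is closed into rings. The enzymes studied here then strip methyl groups from lanosterol, move and reduce its double bonds and release cholesterol, and in the gonads an intermediate made by Cyp51 is known as meiosis-activating sterol. CREM is a cAMP-responsive activator that is abundant in the haploid spermatids of the testis, and it binds the cAMP response element, a short palindrome, or a single arm of it.

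All values below are log2 ratios of the CREM over the IgG signal of a probe, after subtraction of the median of its array. A window is 3 neighbouring probes, and its value is their median. The value of a gene is its highest window, and a gene is called at 1 or more, which is a 2-fold higher CREM signal. Positions are those of the array design (mm9, NCBI build 37). Transcript starts were placed in mm9 by exact matches of probe sequences to RefSeq promoters, and exons and introns were not assigned because no mm9 annotation was used here.

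At Cyp51, Lbr, Sc4mol and Sc5d the median ratio within 300 bp of the transcript start was below 0 and that of the probes from 300 to 1500 bp on either side above 0, so the highest probes of the called genes and the lowest probes of these 4 are shown first, as the array carries them. The other genes did not share this contrast: the medians within 300 bp were 0.76 at Hsd17b7, 0.77 at Nsdhl and 0.75 at Ebp, Tm7sf2 had -0.39 there and -0.34 downstream, and Dhcr7 had no probe from 300 to 1500 bp. Capitals mark CG dinucleotides. The highest ratios of the called genes came from Cyp51 (chr5:4105154-4105213, log2 ratio 2.90), Hsd17b7 (chr1:171899699-171899758, 3.29), Sc5d (chr9:42072786-42072845, 3.98), Sc4mol (chr8:67212799-67212858, 2.02) and Nsdhl (chrX:70164452-70164507, 3.16). At Hsd17b7, Sc5d and Nsdhl the IgG signals of these probes (64.7, 57.6 and 57.6) were not well above background. Set against the lowest IgG signal well above background on the array, the CREM signals were 2.07-fold, 3.16-fold and 1.79-fold higher.
Cyp51 highest probe: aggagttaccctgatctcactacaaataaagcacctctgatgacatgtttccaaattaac
Hsd17b7 highest probe: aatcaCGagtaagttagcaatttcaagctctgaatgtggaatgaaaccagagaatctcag
Sc5d highest probe: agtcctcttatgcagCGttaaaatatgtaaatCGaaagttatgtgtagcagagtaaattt
Sc4mol highest probe: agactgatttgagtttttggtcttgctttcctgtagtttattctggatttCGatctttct
Nsdhl highest probe: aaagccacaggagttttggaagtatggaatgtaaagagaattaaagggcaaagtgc

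The lowest probes of the 4 genes with this contrast came from Cyp51 (chr5:4104754-4104798, -1.50), Lbr (chr1:183772564-183772608, -2.47), Sc4mol (chr8:67212516-67212560, -3.46) and Sc5d (chr9:42072160-42072204, -1.82). They are shorter, and each holds 3 to 6 CG dinucleotides, while the 5 probes above hold 0 to 2. Low ratios and CG dinucleotides did not always go together: the lowest Hsd17b7 probe also holds 3 and stood at -0.99, and the lowest Nsdhl probe, of 60 bases with 0 of them, stood at -1.49.
Cyp51 lowest probe: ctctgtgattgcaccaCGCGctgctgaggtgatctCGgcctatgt
Lbr lowest probe: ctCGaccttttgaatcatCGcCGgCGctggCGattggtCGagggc
Sc4mol lowest probe: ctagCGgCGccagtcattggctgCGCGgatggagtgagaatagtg
Sc5d lowest probe: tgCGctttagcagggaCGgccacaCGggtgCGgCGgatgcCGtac

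The RefSeq promoters of the 5 called genes, from 250 bases before to 50 bases after the start (GRCm38.p6, strand of the gene), are given because the array probes cover them only in part. Capitals mark the arm of the response element (TGACG or CGTCA) and the CCAAT box (CCAAT or ATTGG). They lie at chr5:4104648-4104947 on the minus strand for Cyp51, chr1:169969156-169969455 on the minus strand for Hsd17b7, chr9:42264251-42264550 on the minus strand for Sc5d, chr8:64733529-64733828 on the minus strand for Sc4mol and chrX:72918271-72918570 on the plus strand for Nsdhl.
Cyp51 promoter: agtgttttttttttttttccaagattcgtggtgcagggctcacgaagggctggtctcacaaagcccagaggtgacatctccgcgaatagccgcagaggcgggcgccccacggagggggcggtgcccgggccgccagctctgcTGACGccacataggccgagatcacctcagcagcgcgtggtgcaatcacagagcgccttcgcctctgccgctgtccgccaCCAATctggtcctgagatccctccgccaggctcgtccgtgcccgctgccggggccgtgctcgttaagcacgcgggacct
Hsd17b7 promoter: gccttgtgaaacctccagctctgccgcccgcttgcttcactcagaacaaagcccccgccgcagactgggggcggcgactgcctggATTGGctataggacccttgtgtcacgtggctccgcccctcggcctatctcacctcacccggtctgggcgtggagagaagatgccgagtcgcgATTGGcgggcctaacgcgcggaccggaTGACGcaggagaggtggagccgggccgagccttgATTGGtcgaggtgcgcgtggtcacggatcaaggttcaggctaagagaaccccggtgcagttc
Sc5d promoter: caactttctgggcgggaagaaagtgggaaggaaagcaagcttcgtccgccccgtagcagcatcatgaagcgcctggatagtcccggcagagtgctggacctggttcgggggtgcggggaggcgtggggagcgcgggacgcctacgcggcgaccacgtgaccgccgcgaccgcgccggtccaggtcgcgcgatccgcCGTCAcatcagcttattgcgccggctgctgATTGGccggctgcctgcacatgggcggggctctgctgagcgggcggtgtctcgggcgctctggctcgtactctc
Sc4mol promoter: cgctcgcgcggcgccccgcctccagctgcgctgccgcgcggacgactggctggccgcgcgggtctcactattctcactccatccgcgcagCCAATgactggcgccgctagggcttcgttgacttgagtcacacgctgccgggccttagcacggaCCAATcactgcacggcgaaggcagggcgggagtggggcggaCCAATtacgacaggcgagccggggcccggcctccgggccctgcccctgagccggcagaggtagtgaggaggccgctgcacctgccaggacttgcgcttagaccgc
Nsdhl promoter: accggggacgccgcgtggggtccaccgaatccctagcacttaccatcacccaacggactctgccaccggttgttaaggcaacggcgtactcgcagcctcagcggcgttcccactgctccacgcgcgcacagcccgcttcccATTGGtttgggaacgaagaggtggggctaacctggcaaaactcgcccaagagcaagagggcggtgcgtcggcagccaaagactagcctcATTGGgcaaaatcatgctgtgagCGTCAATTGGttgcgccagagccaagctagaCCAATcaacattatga

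Across the set, 5 of the 9 genes were called (Cyp51, Hsd17b7, Sc5d, Sc4mol and Nsdhl), where 34.5% of all genes were. The median of their highest windows was 1.08, against 0.77 over all genes. A ratio of 1 or more was seen in 46 of the 231 probes (19.9%), against 9.45% of all probes, and in 33 of the 189 windows (17.5%), against 5.99% of all windows. On the IgG side, 18 probes (7.79%) stood at -1 or less, against 6.52% of all probes, 11 windows (5.82%) did, against 4.56% of all windows, and 4 genes (Lbr, Sc5d, Tm7sf2 and Sc4mol) had a window at -1 or less, where 33.7% of all genes had one. The split of 5 called genes against 4 with an IgG-side window became 3 against 0 with normexp background correction. In that setting 16.2% of all genes were called. Once the trend with GC content was taken out the split was 5 against 1, where 30.8% of all genes were called. Ebp was then called and Nsdhl was not. The share of all genes with an IgG-side window was not computed for these settings. Neighbouring windows share probes, and the probes of a gene share 1 precipitate, so no test was made.

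The scanner's own error was 0.25 at the median of the 231 probes, with a range of 0.20 to 0.97. Control spots repeated on each array varied with a median SD of 0.27 over 18 control probes on the first array and 0.33 over 21 on the second. These errors cover the hybridisation and the scan, not a second precipitation. At 34 of the 231 probes the IgG signal did not stand well above background. The CREM signal failed this at 0 probes. At such a probe the printed ratio rests on the dim IgG signal and is not a bound. A bound was computed against the lowest IgG signal well above background on its array (306 on the first array and 288 on the second), or against its own signal where that was higher. This level is not a strict limit, since an Nsdhl probe with an IgG signal of 342 was also not well above background. Of the 46 probes at 1 or more, 31 had a measured IgG signal, and 15 did not, of which 3 stayed at 1 or more at their bound. With all such probes at their bound 4 of the 9 genes were called, all but Nsdhl of the 5, where 21.3% of all genes were.

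**Figure D1:**
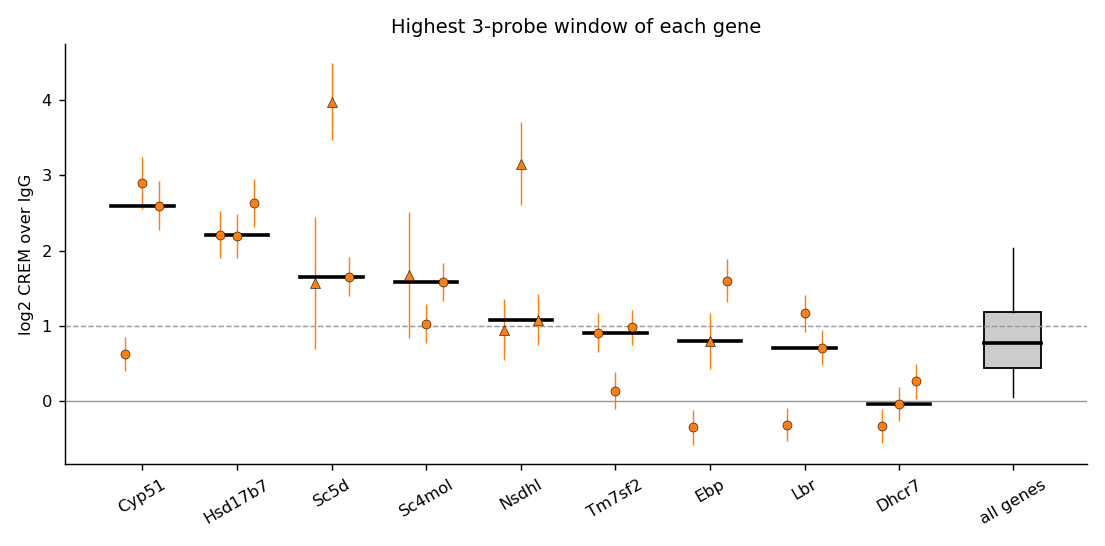
The 3 probes of the highest window of each gene (points, log2 CREM over IgG, with the scanner's error as bars; triangles mark probes whose IgG signal was not well above background) and their median (black line), beside all genes (box from the lower to the upper quartile, line at the median, whiskers to the percentiles 5 and 95). Cyp51 and Hsd17b7 lie highest at 2.60 and 2.21 with measured IgG signals, and the Nsdhl window consists of triangles.

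Cyp51, the cytochrome P450 that demethylates lanosterol, had the highest value of the set as reported. Hsd17b7 was above it with normexp background correction (1.92, against 1.62 for Cyp51) and with windows of 5 probes (2.19, against 1.78). The 3 probes of its highest window (chr5:4104975-4105409) had CREM signals of 1693, 4371 and 3902, against IgG signals of 1081, 577 and 633. Their log2 ratios were 0.62, 2.90 and 2.60, with scanner errors of 0.22, 0.34 and 0.32. The window value of 2.60 lay above 98.9% of the 8661 genes on its array, and above 98.6% of the 2389 genes with a like number of windows. Called windows made up 9 of its 18, in 2 regions that flank the start at position 4104697 on the minus strand. The upstream region spanned 1122 bp around a centre 838.5 bp from the start, with probes between 0.62 and 2.90, and the downstream region spanned 1066 bp around a centre 1030.5 bp from it, with probes between -1.45 and 2.13. Between them, the 4 probes within 300 bp of the start stood lower, at -0.63, -0.04, -1.50 and 0.32. Cyp51 was thus high on both sides of its start and at or below the array median on most of the start itself. The 3 probes farthest upstream had ratios of -0.67, -0.34 and -0.54.

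Tm7sf2 and Lbr both encode reductases that act on the product of Cyp51, and Lbr is also the lamin B receptor of the inner nuclear membrane. Neither was called. In the highest window of Tm7sf2 (chr19:6068461-6068782) the CREM signals were 883, 688 and 1522, against IgG signals of 463, 617 and 762, which gave ratios of 0.91, 0.14 and 0.98. Its value of 0.91 lay above 58.8% of the genes on its array, and 0 of its 37 windows reached 1. In the highest window of Lbr (chr1:183770821-183771545) the CREM signals were 1077, 1612 and 1432, against IgG signals of 1315, 706 and 862, with ratios of -0.31, 1.17 and 0.71. The middle probe alone was past 1 in this window, and the value of 0.71 lay above 46.4% of the genes on the array.

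Lbr had the lowest window of the set as reported. Its 3 probes across the start at 183772532 (chr1:183772279-183772608, minus strand) had CREM signals of 473, 2082 and 132, against IgG signals of 1857, 4971 and 720. The ratios were -2.00, -1.28 and -2.47, and the window's mean GC content was 67.4%. All 3 IgG signals were well above background and each exceeded its CREM signal. Tm7sf2 had 2 windows at -1 or less, the lowest at -1.21 some 851.5 bp downstream of its start at 6067850 (minus strand), with a mean GC content of 47.5%.

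Sc4mol, Nsdhl and Hsd17b7 act in sequence as the oxidase, the decarboxylating dehydrogenase and the keto-reductase that remove the methyl pair of the sterol A ring, and all 3 genes were called. The highest window of Hsd17b7 (chr1:171898621-171899079) had CREM signals of 1743, 4404 and 5338, against IgG signals of 370, 947 and 845, with ratios of 2.21, 2.19 and 2.64. The highest and lowest of the 3 differed by 0.44, and their scanner errors were 0.31, 0.29 and 0.32. The value of 2.21 lay above 96.9% of the genes on the array.

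Hsd17b7 also had the longest called stretch of the 9 genes. Of its 26 windows 12 were called, in 3 regions around the start at 171899336 on the minus strand, the longest 1798 bp. Downstream, the 6 probes between 300 and 1500 bp had ratios from 1.39 to 2.32, all past 1. Upstream, 3 of 5 probes at that distance were past 1, with the highest at 3.29 on an IgG signal of 64.7 that was not well above background. At its bound that probe was 2.07-fold higher in the CREM sample. Unlike at Cyp51, 2 of the 4 probes within 300 bp were past 1, at 2.64 and 1.61, and the other two stood at -0.99 and -0.10.

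The highest window of Sc4mol (chr8:67211712-67212161) had CREM signals of 205, 977 and 3564, against IgG signals of 63.3, 471 and 1169, with ratios of 1.67, 1.03 and 1.58. The IgG signal of the first probe was not well above background, and the gene's value of 1.58 became 1.05 with such probes at their bound. Called windows made up 5 of its 25 and lay in 1 region of 976 bp downstream of the start at 67212375 (minus strand). All 5 probes from 300 to 1500 bp downstream stood between 1.03 and 1.67. Those at 1.49, 1.42 and 1.67 had IgG signals that were not well above background, and at their bounds they stood at 1.37, 0.21 and -0.60. Upstream of the start 1 of 5 probes at that distance was past 1, at 2.02 with a CREM signal of 5632 against an IgG signal of 1366. Between these sides lay the lowest probe of the set, at -3.46, with a CREM signal of 402 against an IgG signal of 4346. It differed by 5.48 from the adjacent probe at 2.02, which starts 283 bp away, and all 4 signals of these probes were well above background.

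The Nsdhl call rested on dim probes. Its highest window (chrX:70164349-70164612) had CREM signals of 350.5, 520.5 and 544, against IgG signals of 179, 57.6 and 253, with ratios of 0.95, 3.16 and 1.08. None of the 3 IgG signals was well above background, and with such probes at their bound the gene's value was 0.84, below the call. The middle probe was then 1.79-fold higher in the CREM sample. All 3 called windows of Nsdhl lay downstream of its start at 70163860 on the plus strand. The farthest upstream used probe named for Nsdhl was centred 88 bp from the start, so no called window could be found farther upstream under its name. The neighbouring centrin gene Cetn2, whose nearest probe starts 211 bp away, had 4 of 6 windows called and a highest window of 1.76, with 6 of 8 IgG signals not well above background.

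Ebp, the sterol isomerase also known as the emopamil binding protein, was not called. Its highest window (chrX:7769957-7770299) had CREM signals of 726, 407 and 1073, against IgG signals of 913, 230.0 and 349, with ratios of -0.35, 0.80 and 1.60. The value of 0.80 lay above 52.0% of the genes on the array. The values of Ebp were even across its start at 7770638 (minus strand): the 4 probes within 300 bp stood between 0.63 and 0.80, and their median GC content was 40.7%.

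Sc5d, the lathosterol desaturase, was called with a value of 1.66. Its highest window (chr9:42072668-42073120) had CREM signals of 179, 920 and 2534, against IgG signals of 59.6, 57.6 and 793, with ratios of 1.57, 3.98 and 1.66. The first pair of IgG signals was not well above background. At its bound the middle probe was 3.16-fold higher in the CREM sample. The window value of 1.66, set by the third probe with measured signals, stayed the same. Upstream of the start at 42072383 (minus strand) 4 of 5 probes from 300 to 1500 bp were past 1, and downstream 2 of 7 were. The 3 probes within 300 bp had ratios of -1.82, -1.47 and -1.64, with CREM signals of 853, 1544 and 1549.9, against IgG signals of 2975, 4227 and 4754. Sc5d thus had low values on the start and high values mainly upstream of it, with a median of 1.57 upstream and 0.16 downstream, against 1.77 and 1.42 at Cyp51.

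Dhcr7, the reductase that forms cholesterol in the last step, could be judged only in part. It had 8 probes and 3 windows, and the highest of these (chr7:151011763-151012265) had CREM signals of 1061, 927 and 974, against IgG signals of 1314, 935 and 799, with ratios of -0.33, -0.04 and 0.26. Its value of -0.04 lay above 2.73% of the genes on its array, but above 23.5% of the 85 genes with a like number of windows. The window lay 2710 bp from the nearest matched start, and the region from 300 to 1500 bp around the starts held no probe named for Dhcr7. RefSeq lists 3 promoters for Dhcr7, and probes matched those with starts at 151009072 and 151009304 (plus strand). The remaining one, at chr7:143829964-143830263 in GRCm38.p6, is the one of the 3 that holds CCAAT boxes, and no probe matched it. The neighbour Nadsyn1, whose nearest probe starts 101 bp away, had 1 of 5 windows called, at 1.06. The Nadsyn1 probe at chr7:151008834-151008878 (ratio -0.88) was part of the lowest window of Dhcr7, centred 100.5 bp upstream of its nearest matched start. For the probes named for Nadsyn1, distances from the starts of Dhcr7 were not computed.

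**Figure D2:**
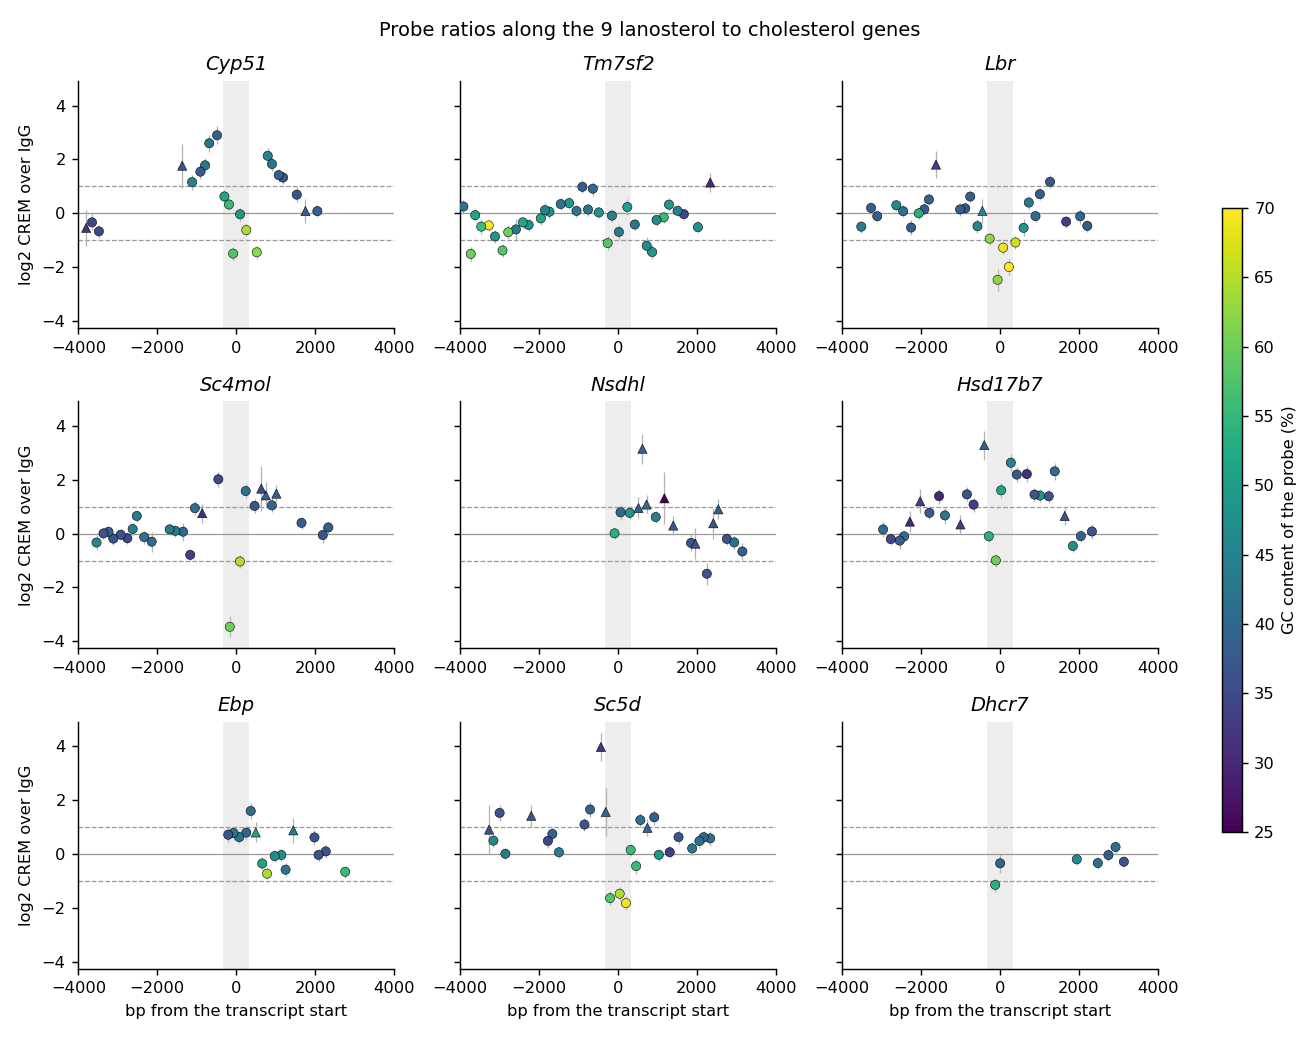
Log2 CREM over IgG of each probe (vertical axis, scanner error as bars) against its distance in bp from the nearest matched transcript start of its gene (horizontal axis, downstream to the right), coloured by GC content, with triangles for probes whose IgG signal was not well above background. The grey band marks 300 bp on either side of the start, dashed lines mark 1 and -1, and 24 probes beyond 4000 bp are not drawn. High probes flank the band at Cyp51, Hsd17b7, Sc5d and Sc4mol, upstream, downstream or on both sides, and the probes of 57.8% GC or more within the band are below 0, while Hsd17b7 (1.61), Cyp51 (0.32) and Nsdhl (0.01) have probes of 51.1% to 55.6% GC there that are not.

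The probes were also grouped by distance. The distance classes were set after the values had been seen, and they are given as a description. From 300 to 1500 bp on either side, 36 of 83 probes (43.4%) were at 1 or more, against 14.6% of all probes at that distance, and the median was 0.88 against 0.14. Upstream the count was 14 of 34 (41.2%), against 16.2% of all, and downstream it was 22 of 49 (44.9%), against 13.5% of all. These probes belonged to 8 genes, and 7 of them had at least 1 probe past 1, with Tm7sf2 the exception. Most of the probes past 1 came from 4 genes. Cyp51 had 6 upstream and 4 downstream, Hsd17b7 3 and 6, Sc4mol 1 and 5 and Sc5d 4 and 2. Nsdhl had 3 downstream, and Lbr and Ebp had 1 each, also downstream. The upstream probes came from 6 genes and the downstream probes from 8. Nsdhl and Ebp had no upstream probe at this distance, so theirs could only be downstream. With normexp background correction the count was 13 of 83 (15.7%), against 6.57% of all, with a median of 0.21 and 4 genes with a probe past 1. With dim channels at their bound, 29 of the 83 probes stayed past 1 (34.9%), against 9.57% of all.

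Within 300 bp of the start, 3 of 31 probes (9.68%) were at 1 or more, against 11.0% of all probes there. In the same place 11 of the 31 (35.5%) were at -1 or less, against 24.0% of all. The median was -0.34 for the set and -0.31 for all probes. With normexp, 4 of the 31 (12.9%) were at 1 or more, against 5.08% of all, and 1 (3.23%) was at -1 or less, against 5.22% of all. Values of -1 or less were rarer away from the start: from 300 to 1500 bp they made up 0 of the 34 upstream probes, against 3.65% of all, and 8.16% of the downstream probes, against 8.25% of all. Farther out, from 1500 to 3000 bp, 5 of 36 upstream probes (13.9%) were past 1, against 7.52% of all, and 1 of 37 downstream probes (2.70%) was, against 7.38% of all. At these distances 2.78% of the upstream probes were at -1 or less, equal to 2.78% of all, and 2.70% of the downstream probes, against 3.04% of all.

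**Figure D3:**
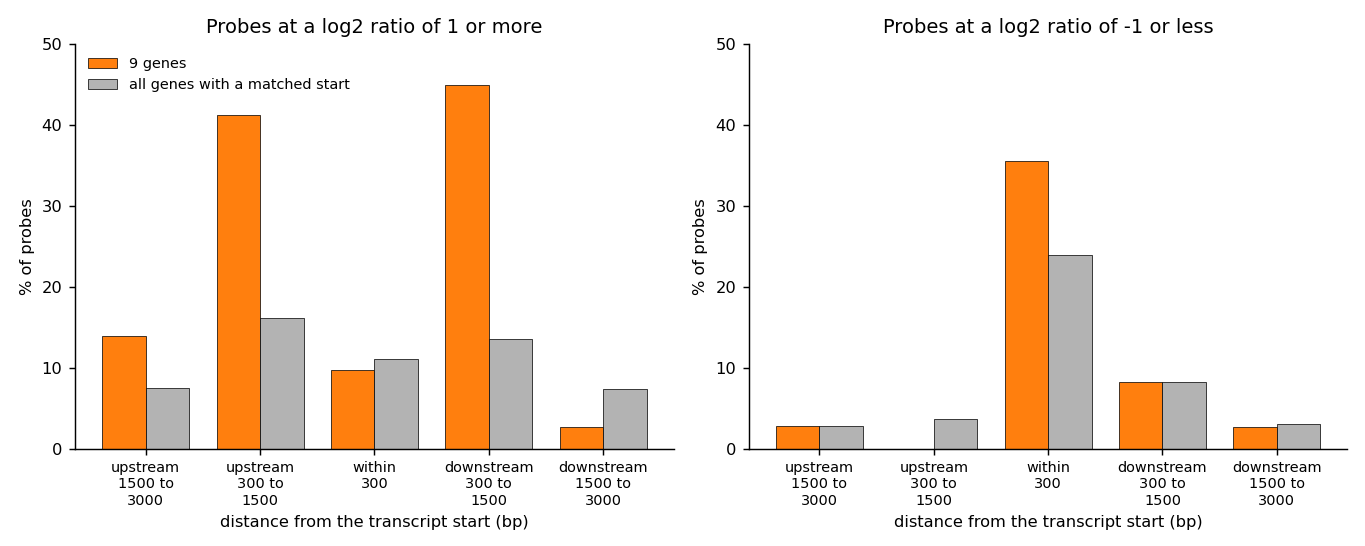
Percentage of probes at a log2 ratio of 1 or more (left) and of -1 or less (right) in classes of distance from the matched start, for the 9 genes (orange) and all genes with a matched start (grey). From 300 to 1500 bp the orange bars reach 41.2% upstream and 44.9% downstream, and within 300 bp the tall bar is on the right, at 35.5%.

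The ratio moved with the GC content of the probe. Over the 231 probes Pearson's r was -0.55 and Spearman's rho -0.46, where all 454679 used probes had -0.41 and -0.30. The probes of a gene share their locus, and all share the hybridisations, so these are descriptions. Below 40% GC, 32 of 101 probes of the set were at 1 or more, against 12.7% of all such probes, and 1 was at -1 or less, against 2.26%. From 40 to 50% GC the count was 13 of 91, against 8.74% of all, with 2 at -1 or less, against 2.74%. At 50% GC or more, 1 of 39 was at 1 or more, against 1.71% of all, and 15 were at -1 or less, against 27.8% of all. With the median ratio of each GC class subtracted, 32 of the 83 probes from 300 to 1500 bp were at 1 or more (38.6%), against 13.0% of all. The median within 300 bp became 0.03, against -0.008 over all probes there. In that setting 3 of the 31 probes within 300 bp (9.68%) were at -1 or less, against 8.63% of all. What part GC content has in the low values on the starts was not tested.

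**Figure D4:**
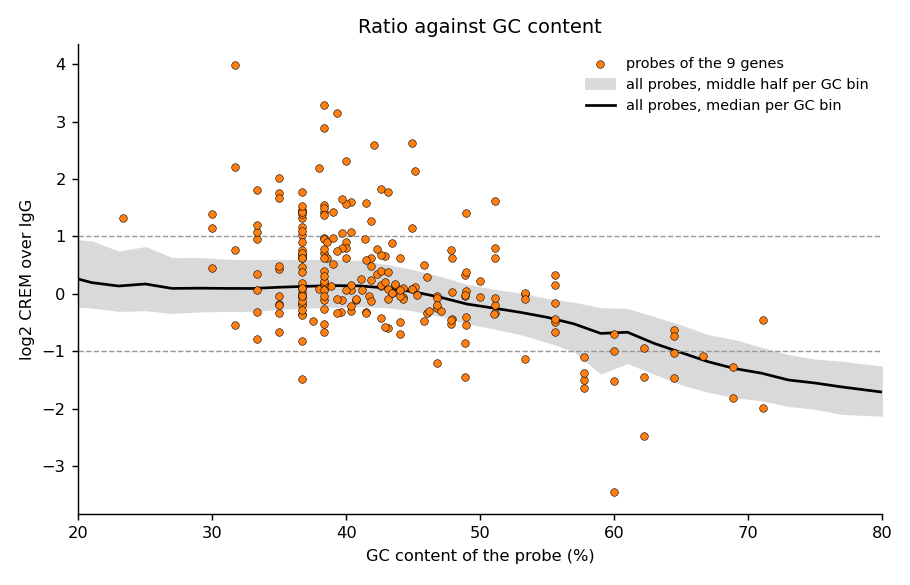
Log2 CREM over IgG against the GC content of the probe for the 231 probes of the 9 genes (orange points), with the median (line) and the middle of the distribution, between the quartiles (grey), of all probes per class of 2% GC. Of the points at 1 or more, 1 lies at 50% GC or above, and 15 of the points at -1 or less do.

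Of the 231 probes, 0 held the full response element TGACGTCA, which 0.0570% of all probes hold, and neither did any of the 11 RefSeq promoters of the 9 genes, against 1.79% of all 32851 promoters of the same length. A single arm of the element, searched as TGACG or CGTCA and thus on both strands, was in 5 of the 231 probes (2.16%), against 2.08% of all. It was in 5 of the 11 promoters, those of Cyp51, Ebp, Hsd17b7, Nsdhl and Sc5d, against 20.8% of all promoters. In the Cyp51 promoter printed above it begins 108 bases before the start, in Sc5d 54 bases and in Hsd17b7 46 bases before it, and in Nsdhl 3 bases after it. In Nsdhl the arm adjoins a CCAAT box without sharing a base with it. Of the 5 called genes Sc4mol had none in its promoter, and Ebp had 1 without being called.

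The probes that hold an arm came from Ebp (3 probes), Sc5d and Tm7sf2, and 1 of the 5 was at 1 or more. Those nearest to the starts are printed with the arm in capitals, at chrX:7770536-7770590 and chrX:7770682-7770733 for Ebp and chr9:42072668-42072722 for Sc5d.
Ebp probe downstream of the start: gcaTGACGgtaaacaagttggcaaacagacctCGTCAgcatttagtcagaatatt
Ebp probe upstream of the start: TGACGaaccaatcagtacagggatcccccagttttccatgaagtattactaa
Sc5d probe upstream of the start: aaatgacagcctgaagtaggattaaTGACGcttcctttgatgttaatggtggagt

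The Ebp probes had ratios of 0.63 (75 bp downstream of the start) and 0.79 (69.5 bp upstream), and another Ebp probe with an arm, 2084.5 bp downstream, had -0.03. The Sc5d probe had 1.57 with a scanner error of 0.88, since its IgG signal was not well above background. The Tm7sf2 probe with an arm had -0.70. The arms in the Cyp51, Hsd17b7, Sc5d and Nsdhl promoters were in no used probe of these genes. The arm of the Sc5d probe is another one, since that probe is centred 312 bp upstream of the start.

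Other short motifs were common to the promoters. A CCAAT box (CCAAT or ATTGG) was in 9 of the 11 promoters, covering all 9 genes, against 37.4% of all promoters, and Nsdhl held 4 of them and Sc4mol and Hsd17b7 3 each. A GC box (GGGCGG or CCGCCC) was in 10 of the 11, against 35.7% of all. The E-box CACGTG was in 3 (Dhcr7, Hsd17b7 and Sc5d), against 7.15% of all. A sterol regulatory element written as TCACNCCAC or GTGGNGTGA was in 0, against 1.24% of all. These are matches of letters in the window of 300 bases.

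Of 13 genes that lead from acetyl-CoA to lanosterol or reduce the sterol side chain, 11 had windows and 8 were called, with a median of 1.24, where 34.5% of all genes were called. Idi1, an isopentenyl diphosphate isomerase, had 2.77, and Pmvk, the phosphomevalonate kinase, 2.56. The farnesyl diphosphate synthase Fdps had 1.497, the squalene synthase Fdft1 1.34, the squalene epoxidase Sqle 1.24, the lanosterol synthase Lss 1.20 and the mevalonate kinase Mvk 1.18. The thiolase Acat2, at 0.96, was the highest of the 3 not called. In the highest window of Sqle, 2 IgG signals were not well above background, and in those of Lss and Fdft1 1 was not. With dim channels at their bound 7 of the 11 were called, where 21.3% of all genes were.

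Of 15 genes that regulate or move sterols, 8 were called, where 34.5% of all genes were, with a median of 1.01, against 0.77 over all genes. Stard4, a sterol carrier, had 4.16, with ratios of 3.38 to 4.17 on 3 IgG signals that were not well above background. It stayed past 1 in all 14 other settings but stood at 2.67 with dim channels at their bound, 2.48 with both channels above background and 2.14 in the authors' values. Insig1, which holds the SREBP processing complex in the endoplasmic reticulum, had 2.03 on measured signals. The SREBP-processing protease Mbtps1 had 1.74 and Mbtps2, a second such protease, 1.01, which became -0.058 with probes at most 300 bp apart. Mbtps1 was 0.34 with normexp and 0.72 with both channels above background. The values were 1.46 for the lysosomal sterol protein Npc2, 1.41 for the transcription factor Srebf2, 1.26 for the oxysterol receptor Nr1h2 and 1.13 for the exporter Abca1. Npc2 was past 1 in 9 of the 14 other settings, down to 0.60, Abca1 in 7, down to 0.25, and the windows of Mbtps1, Npc2 and Abca1 each had 2 IgG signals that were not well above background. Srebf2 was 0.76 with normexp and Nr1h2 0.78 with windows of 5 probes. Srebf1, at 0.98, was the highest not called. With dim channels at their bound 5 of the 15 were called, where 21.3% of all genes were. Both lists were drawn up with earlier results of these data known.

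Among the neighbours within 2000 bp of the 9 genes, Cetn2 and Nadsyn1 had called windows, as given above, and the other four had none. The probes named for Ddr2 beside Hsd17b7 had a highest window of 0.79, for Znhit2 beside Tm7sf2 0.63, for Porcn beside Ebp 0.49, and for a transcript without a gene symbol beside Lbr -0.22.

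The calls of Cyp51, Hsd17b7 and Sc5d stood under every other setting run. Cyp51 stayed between 1.62 and 2.68, Hsd17b7 between 1.92 and 2.35 and Sc5d between 1.34 and 2.40 over 14 other settings, and all 3 stayed past 1 in each. Sc4mol was past 1 in 13 of the 14, with 0.23 under normexp background correction as the exception. Nsdhl was past 1 in 9 of the 14, and stood at 0.36 with normexp, 0.68 in the authors' values, 0.87 with both channels above background, 0.84 with dim channels at their bound and 0.94 with the GC trend removed. Ebp stood at 0.73 to 1.07 and was past 1 in 2, with the mean of 3 probes and with the GC trend removed. Tm7sf2 stayed at 0.98 or less, Lbr at 0.82 or less and Dhcr7 at 0.05 or less.

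**Figure D5:**
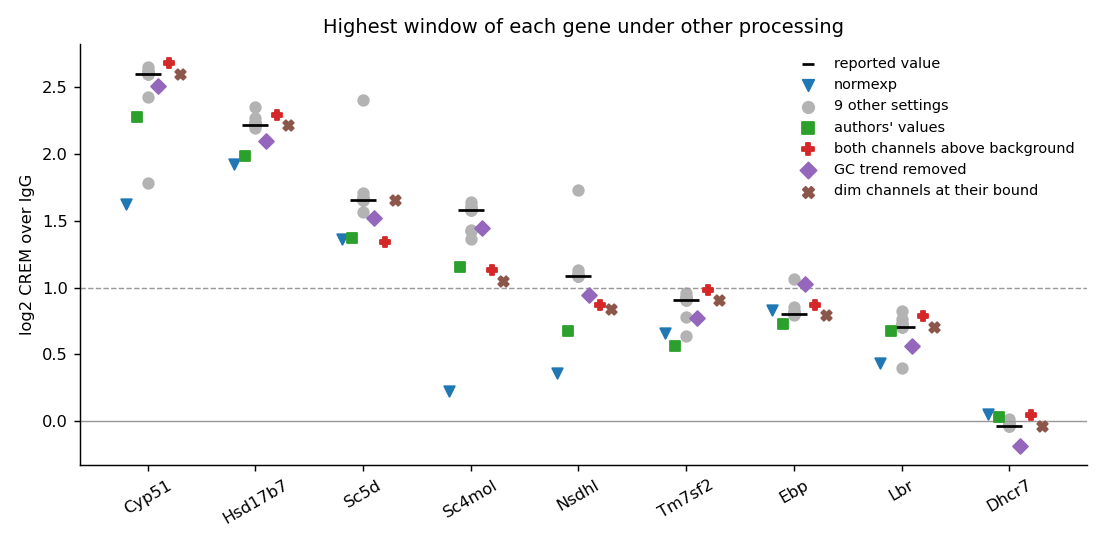
The highest window of each gene (log2 CREM over IgG) as reported (black bar) and under 14 other settings (coloured symbols for those named in the legend, grey for the other 9). Cyp51, Hsd17b7 and Sc5d lie above the dashed line at 1 in each, and Sc4mol and Nsdhl fall to 0.23 and 0.36 with normexp background correction.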

How the data were processed

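Chromatin precipitated with the CREM antibody (Cy5) or goat IgG (Cy3) was hybridised to 2 Agilent promoter arrays with 1 sample per group on each. Per the file headers, the deposited intensities were background-subtracted and dye-normalised by Agilent Feature Extraction 10.7.1.1, which also gives a log10 ratio with its error, and probe positions follow mm9 (NCBI build 37). The table of values deposited by the authors is in log2 ratio units. R 2.10.1 and limma are credited in the submitters' processing notes. These values equalled, in file order, a limma loess of mean minus median background signals, with a largest difference of 5.00e-08 over 243464 spots of the first array and 4.93e-08 over 243456 of the second. Their medians were -0.00096 and -0.00103, and the direction was that of Cy5 over Cy3.

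From the processed intensities, log2 Cy5 over Cy3 was computed and the array median subtracted (0.02 on both). Controls, outlier spots, probes without a position and probes dim in both channels were left out, which kept 228275 and 226404 probes. CREM signals were well above background at 96.3% and 95.5% of probes, IgG signals at 77.4% and 78.5%. A window took the median of 3 successive probes whose starts lay no more than 500 bp from one another, and it belongs to the gene of its middle probe. The number of arrays limits the precision. Of 17850 gene names, 13983 were current in RefSeq (GRCm38.p6), 2630 were updated through a synonym and 1237 were kept. Transcript starts were placed for 13246 genes, including all 9, which assumes no gap between builds within a promoter, and 19 promoters with conflicting matches were left out. Of 21434 matches, 21368 put the probe sequence on the plus strand. Promoter sequences are from RefSeq (GRCm38.p6).

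All 9 genes are described, with every called gene and the highest uncalled gene of 2 other lists and the neighbours within 2000 bp. The value of 1 called gene of these lists is not reported here. The members and lists were chosen with earlier results of these data known. With no replicates, no test was run. Settings varied were background correction, loess, the authors' values, centring, dim and saturated probes, window size, gap and statistic, GC trend, threshold and the second window. Distance classes and bounds for dim channels were added after seeing the data. The window code was tested on simulated data. R 4.3.3, limma 3.58.1, Python 3.11.15, numpy 2.4.6 and pandas 2.3.3 were used.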

Additional observations from a re-analysis of the deposited data

How the results depend on the processing

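The median highest window of the 9 genes (1.08) became 0.66 with normexp background correction, 0.73 in the values of the authors' table and 1.43 when probes were averaged by the mean. With normexp, 3 members and 3 sterol regulation genes were called, where 16.2% of all genes were, and 0 members had a window at -1 or less. In that setting 13 member windows reached 1, against 2.43% of all windows. So did 13 member probes from 300 to 1500 bp, against 6.57% of all probes there. The count of members with a window at -1 or less (4) was 2 with windows of 5 probes, 1 with the GC trend removed and 2 at a threshold of 1.5. The share of all genes with such a window, 33.7% as reported, was not computed for the other settings. Whether these falls differ from those over all genes thus cannot be told. At the threshold of 1.5, 15 member windows were counted, against 2.03% of all windows. The same threshold was reached by 3 other cholesterol synthesis genes and 3 sterol regulation genes, and by 14.1% of all genes. The count of sterol regulation genes (8) was 5 in the authors' values, 4 with both channels above background, 4 with windows of 5, 5 for the second highest window and 5 with dim channels at their bound, where 17.1%, 20.8%, 19.8%, 13.2% and 21.3% of all genes were called. Mbtps2 turned to -0.058 with a gap of 300 bp and for the second highest window, and fewer windows enter both. The cause of the other shifts was not tested. The remaining 83 of 102 comparisons of counts and medians stayed within 1.5 times or within the spread of control spots. Dhcr7 had no window of 5 probes, so 8 members were measured there. No paired analysis was possible because each group has 1 sample per probe. With 1 hybridisation, differences under the control spread of 0.27 and 0.33 could not be resolved. The IgG signal was dim at 34 of 231 member probes, where the printed ratios use the dim signal. Their bounds are equal or lower, as at the highest Sc5d probe, with 1.66 against a printed 3.98.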

Other observations

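The second highest window of a gene, sharing no probe with the highest, was past 1 in 4 members. Cyp51 had 1.83, Hsd17b7 1.46, Sc4mol 1.42 and Sc5d 1.26, and 12.8% of all genes had 2 such called windows. Nsdhl had 0.79 and Ebp 0.79, Tm7sf2 0.63, Lbr 0.51 and Dhcr7 -0.88. Beyond 1500 bp from a start 7 probes were past 1. Sc5d had 1.53 and Hsd17b7 1.39 upstream on measured IgG signals. Sc5d with 1.42, Hsd17b7 with 1.20 and Lbr with 1.81 upstream, and Tm7sf2 with 1.76 and 1.14 downstream, had IgG signals that were not well above background.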
